A study of Mus musculus with 20 samples.

Results

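Elf5, Kit, Aldh1a3, Cd14, Ltf, Lcn2 and Lif are genes associated with the luminal progenitors of the mammary gland, and their chromatin was examined in Comma-Dβ cells, an established mouse mammary epithelial line. These 7 genes, of 21887 protein-coding genes of the mouse placed on chromosomes, were chosen by name, not by a threshold on their values. Each was located in mm10 coordinates. Every histone mark peak that touched the gene or the 1 kb beyond each of its ends (together called the gene window) was taken, with every H3K27ac peak and every HEB site within 100 kb of the gene. The study immunoprecipitated chromatin of these cells at passage 28 with antibodies to HEB, H3K27ac, H3K4me3 or H3K27me3 and sequenced it beside input chromatin. Each of these 5 groups had 4 samples, 20 in all, and no group differed from another in treatment. The culture medium was DMEM/F12, supplemented with insulin at 0.125 IU/mL, epidermal growth factor at 5 ng/mL, 2% FBS and HEPES at 10 mM. The deposited data are 1 peak list per antibody, so no value has a spread between replicates, no test between samples was possible, and the depth of the samples is unknown.

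Luminal progenitors are the mammary epithelial cells that give rise to the milk-secreting alveolar cells, and they are set apart from basal cells, which carry the contractile program, and from hormone-sensing luminal cells. Elf5 is an ETS transcription factor that drives alveolar differentiation downstream of prolactin. Kit and Cd14 are surface proteins used to sort these cells, Aldh1a3 is an enzyme that makes retinoic acid, Ltf and Lcn2 are secreted iron-sequestering proteins, and Lif is a cytokine of the interleukin 6 family known in the gland for its role in involution. Acetylation of lysine 27 of histone H3 (H3K27ac) is found at enhancers and promoters in use. Trimethylation of lysine 4 (H3K4me3) accompanies promoters, and that of lysine 27 (H3K27me3) is laid down by Polycomb complexes over silenced genes. HEB, the product of Tcf12, is an E protein that binds E-boxes (CANNTG).

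The deposited lists held 61496 H3K27ac peaks, 17162 H3K4me3 peaks, 114660 H3K27me3 peaks and 956 HEB sites. Fold enrichment and −log10 q of each peak are the authors' own values, and their medians differ between lists (median fold 2.39, 12.9 and 1.74 for the 3 marks in that order), so folds are compared within a mark only. As a check of the labelled epithelial line, H3K27ac lay at 7 of 7 luminal keratin and adhesion genes, with 30.3 kb over Cdh1, which encodes E-cadherin, and H3K27me3 at 3 of the 7, Cdh1 among them. H3K27ac also lay at 5 of 10 immune, 5 of 6 fibroblast and 3 of 5 endothelial markers, with 17.1 kb over the fibroblast collagen gene Col1a1 and 16.0 kb over Pdgfrb, a receptor gene of the same list. H3K27me3 lay at 8 of the immune, 2 of the fibroblast and 3 of the endothelial markers. Over all genes the shares were 63.2% for H3K27ac and 37.5% for H3K27me3. A part of other cell types in the members' marks was not tested.

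The sequences just before the annotated starts are shown for the members in the promoter table, because the marks there separate the members from each other. RefSeq promoter windows (GRCm38.p6, the assembly mm10 is based on) matched 5 of the 7 genes, all but Aldh1a3 and Cd14. The 250 bases before each start are printed 5′ to 3′ on the gene's own strand, and capitals mark E-boxes (CANNTG, which reads the same on both strands). Elf5 has 2 starts in the table, and of the starts of Kit, which lie within a few bases of each other, the first is shown.
Elf5 start A, chr2:103411848-103412097, plus strand: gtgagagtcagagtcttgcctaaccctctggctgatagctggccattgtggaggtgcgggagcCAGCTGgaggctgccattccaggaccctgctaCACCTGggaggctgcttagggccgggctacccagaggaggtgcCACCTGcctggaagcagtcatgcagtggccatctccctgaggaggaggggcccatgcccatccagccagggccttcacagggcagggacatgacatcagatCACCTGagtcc
Elf5 start B, chr2:103423818-103424067, plus strand: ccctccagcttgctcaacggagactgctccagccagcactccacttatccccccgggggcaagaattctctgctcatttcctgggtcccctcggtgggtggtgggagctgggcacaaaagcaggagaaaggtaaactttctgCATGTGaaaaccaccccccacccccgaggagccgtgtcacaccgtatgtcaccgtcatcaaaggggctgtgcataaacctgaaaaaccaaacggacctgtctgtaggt
Kit, chr5:75574737-75574986, plus strand: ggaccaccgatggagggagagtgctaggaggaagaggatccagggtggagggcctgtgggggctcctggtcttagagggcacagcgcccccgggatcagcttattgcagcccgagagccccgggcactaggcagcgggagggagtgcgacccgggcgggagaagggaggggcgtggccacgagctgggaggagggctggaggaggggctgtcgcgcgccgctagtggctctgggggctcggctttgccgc
Ltf, chr9:111019042-111019291, plus strand: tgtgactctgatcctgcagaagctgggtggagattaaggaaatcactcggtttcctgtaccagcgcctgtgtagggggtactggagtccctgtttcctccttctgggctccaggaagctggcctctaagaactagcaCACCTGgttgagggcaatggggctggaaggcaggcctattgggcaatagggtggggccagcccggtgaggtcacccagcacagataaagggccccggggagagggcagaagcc
Lcn2, chr2:32387740-32387989, minus strand: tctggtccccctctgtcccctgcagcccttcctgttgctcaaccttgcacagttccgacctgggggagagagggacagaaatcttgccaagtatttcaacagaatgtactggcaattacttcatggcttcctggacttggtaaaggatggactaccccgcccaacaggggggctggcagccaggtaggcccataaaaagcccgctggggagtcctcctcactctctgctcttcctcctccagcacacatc
Lif, chr11:4257318-4257567, plus strand: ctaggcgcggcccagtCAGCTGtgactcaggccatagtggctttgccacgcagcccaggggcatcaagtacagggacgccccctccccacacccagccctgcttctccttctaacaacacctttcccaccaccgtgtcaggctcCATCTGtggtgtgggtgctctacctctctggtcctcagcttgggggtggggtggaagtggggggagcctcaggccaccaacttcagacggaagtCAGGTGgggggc

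The windows differed in E-boxes. Elf5 start A held 4, which were CAGCTG once and then CACCTG at 3 places. Lif held 3, which were CAGCTG first, then CATCTG and last CAGGTG. Elf5 start B (CATGTG) and Ltf (CACCTG) held 1 each, and the windows of Kit and Lcn2 held 0. An E-box is a frequent match, found in 62.8% of the 21263 windows of protein-coding genes with a median of 1 per window. CAGCTG, one of the E-boxes that CANNTG also counts, was found in 12.1% of windows, and CAGGTG, searched on both strands and therefore also as CACCTG, in 16.9%. The window of Kit was richest in CpG among these genes, with 17 CpG at 70.8% G+C, and Elf5 start A had 2 CpG at 62.8% G+C. The median over all windows was 10 CpG at 55.6% G+C. Ltf had 4 CpG, Lcn2 had 3, Lif had 6 and Elf5 start B had 8, all below that median. The ETS core GGAA, counted on both strands, was present in every member window, from 1 in Kit and Elf5 start B to 5 in Ltf, and in 93.2% of all windows. GATA was present in Ltf and in both Elf5 windows (49.4% of all windows), and the STAT sequence TTCNNNGAA in none of them (6.58%). These matches are letters in the window only.

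The 7 genes fell into 4 chromatin states. Cd14 and Lif carried H3K27ac with H3K4me3 and no H3K27me3, a state found at 44.7% of all protein-coding genes. Elf5 and Lcn2 carried all 3 marks (11.5% of genes), Kit and Aldh1a3 carried H3K4me3 with H3K27me3 and no H3K27ac (4.06%), and Ltf carried H3K27me3 alone (17.9%). Counted by mark, H3K4me3 lay at 6 of 7 genes (61.2% of all genes), H3K27ac at 4 of 7 (63.2%) and H3K27me3 at 5 of 7 (37.5%). The H3K27ac count lies near its background share, and with 7 genes and no test none of these counts sets the members apart. A −log10 q of 5 was reached by 9.53% of all H3K27me3 peaks, 45% of H3K27ac peaks and 87.8% of H3K4me3 peaks, so this cut bears unequally on the lists. When only such peaks were kept, H3K27me3 was left at 2 of 7 genes, Kit and Aldh1a3 (19.5% of all genes). H3K4me3 was then left at 5 of 7 (59.6%), without Elf5, and H3K27ac at 3 of 7 (55.1%), without Lcn2. With windows of 1 kb around each gene end only, H3K27me3 lay at 3 of 7 genes (32.3%), since the peaks of Elf5 and Ltf are inside the gene. H3K4me3 was then left at 4 of 7 (55.8%), without Elf5 and Lif, and H3K27ac stayed at 4 of 7 (53.4%). When peaks had to exceed their list's median fold, H3K4me3 was left at 2 of 7 (43.8%), Cd14 and Lif. Under that setting H3K27me3 stayed at 5 of 7 (32.2%) and H3K27ac at 4 of 7 (56.7%).

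**Figure D1:**
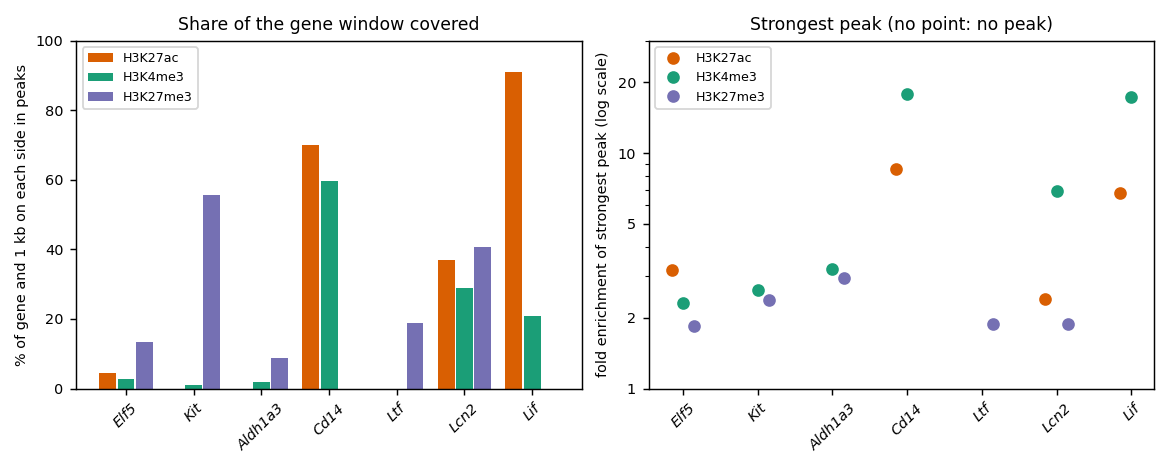
Share of each gene window covered by peaks of each mark (left, bars, percent) and fold enrichment of the strongest peak over the window (right, points, log axis) for the 7 genes, from 1 peak list per mark with no replicate error. Cd14 and Lif have the highest H3K4me3 folds of the 7 (17.8 and 17.3), below the median of all genes with the mark (19.9). H3K27ac covers 70.0% and 90.9% of their windows, and Kit has H3K27me3 over 55.7%.

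Elf5, the transcription factor of the group, had H3K27ac at both annotated starts, a low H3K4me3 peak at one of them, and its strongest acetylation outside the gene. The gene lies on chromosome 2 (103412098 to 103450989, plus strand). An H3K27ac peak of 2433 bp (103410078 to 103412510) with a fold of 3.18, at percentile 70.2 of its list, covered start A, whose window is shown above, and no H3K4me3 peak lay there, the nearest being 12.1 kb away. Start B had an H3K27ac peak of 380 bp (fold 2.18) beginning 0.036 kb after it and an H3K4me3 peak of 1117 bp (103424159 to 103425275, fold 2.30) beginning 0.091 kb after it. These 2 peaks shared 325 bp. The H3K4me3 fold was the lowest strongest fold among the 6 members with that mark and stood at percentile 10.6 of all H3K4me3 peaks by fold. Inside the gene, 4 H3K27me3 peaks covered 5490 bp (13.4% of the window) with folds from 1.59 to 1.84, and none overlapped either active mark there. Within 100 kb lay 19 H3K27ac peaks, and the strongest, 6.08 kb wide with a fold of 8.28 (103386775 to 103392858), had its nearest edge 19.2 kb before the gene and stood at percentile 98.3 of all H3K27ac peaks by fold. It touched no gene, and Elf5 had the nearest gene end. Among the 17 peaks outside the gene window, 5 overlapped H3K27me3, that strongest one by 748 bp.

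Kit, the receptor tyrosine kinase for stem cell factor, lay in H3K27me3 over most of its length. Kit is on chromosome 5 (75574987 to 75656722, plus strand). Its window held 11 H3K27me3 peaks, which covered 46.6 kb or 55.7% of it, and 96.3% of all genes had fewer base pairs of the mark. Kit is longer than 86.0% of genes, and by the share of the window covered 86.3% of genes had less. The widest, 14.6 kb (75570454 to 75585018, fold 2.37), covered the whole window printed above and was the only one of the 11 with a −log10 q of 5 or more. An H3K4me3 peak of 934 bp (75575047 to 75575980, fold 2.62) began 0.060 kb after the first start and lay wholly inside that H3K27me3 peak. Over the gene and 100 kb on each side, H3K27me3 covered 62.7% of the sequence, more than at 95.6% of genes. H3K27ac was listed once in that stretch, in a peak of 1241 bp at 82.3 kb beyond the gene (fold 2.24, below the median of the list), and all of it overlapped H3K27me3. No other protein-coding gene lies within 100 kb of Kit.

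Aldh1a3, a retinaldehyde dehydrogenase, had H3K4me3 and H3K27me3 at one end and, beyond the other, strongly acetylated chromatin over the neighbouring gene Lrrk1. The gene lies on chromosome 7 (66390892 to 66427477). At its higher-numbered end, an H3K4me3 peak of 752 bp (66427255 to 66428006, fold 3.21) lay wholly inside an H3K27me3 peak of 3718 bp (66425387 to 66429104, fold 2.95). That H3K27me3 peak stood at percentile 99.2 of its list by fold and was the strongest of this mark at any of the 7 genes. No H3K27ac peak touched the gene window. Beyond the lower-numbered end, 3 H3K27ac peaks stood in a row at 1.51, 9.91 and 18.7 kb from the gene, with widths of 6.46, 7.72 and 7.77 kb and folds of 5.07, 9.48 and 4.67. The middle one (66373258 to 66380980) was the strongest H3K27ac peak near any of the 7 genes, also at percentile 99.2 of its list. The 2 nearest also overlapped H3K4me3, by 2624 and 1082 bp. All 3 lay over Lrrk1, a kinase gene whose nearer edge is 2.55 kb from Aldh1a3. Which end of either gene is its start was not analysed here. Lrrk1 also had the nearest gene end, at 0, 7.36 and 16.2 kb. The H3K4me3 peak over that end had a fold of 22.8, against 3.21 at Aldh1a3. Position therefore does not give these values to Aldh1a3, and which gene the peaks serve was not tested. With 2.5 kb in place of 1 kb on each side, the first of these peaks would count for Aldh1a3. On the higher-numbered side, where no other gene lies within 100 kb, a peak of 6.89 kb at 17.4 kb (fold 4.07) was the strongest.

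Cd14, the co-receptor through which TLR4 senses lipopolysaccharide, had the highest H3K27ac fold over its own window and an H3K4me3 fold close to that of Lif, whose −log10 q was higher (307.3 against 285.4). It is a short gene of 1752 bp on chromosome 18 (36725064 to 36726815). One H3K27ac peak of 2627 bp (fold 8.53) covered 70.0% of the window, and an H3K4me3 peak of 2236 bp (fold 17.8) lay wholly inside it. No H3K27me3 peak touched the window. By its strongest H3K27ac fold, Cd14 stood above 96.0% of all protein-coding genes, and by its H3K4me3 fold above 65.1%. It lies among 14 other protein-coding genes within 100 kb, and 13 more H3K27ac peaks lay in that range, 8 of them overlapping H3K4me3. The widest of these, 11.6 kb with a fold of 5.28 at 14.5 kb from Cd14, touched no protein-coding gene.

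Ltf and Lcn2, which both encode secreted proteins that withhold iron from bacteria, differed from each other. Ltf (chromosome 9, 111019292 to 111042766, plus strand) had no active mark over its window. Its nearest H3K4me3 peak lay 36.5 kb from the start, and 2 H3K27me3 peaks inside the gene covered 4775 bp (18.7% of the window) with folds of 1.72 and 1.88, neither with a −log10 q of 5 or more. The nearest mark before the start was an H3K27ac peak of 4412 bp (111010376 to 111014787, fold 5.02) at 4.51 kb, with a second of 3142 bp (fold 3.57) at 18.5 kb. The first of these was nearer to Ltf than to any other gene end and stood at percentile 89.2 of the list by fold.

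Lcn2 (chromosome 2, 32384637 to 32387739, minus strand) had all 3 marks at its start. An H3K27ac peak of 2141 bp (fold 2.41, −log10 q 4.18) covered all 250 bases printed above, an H3K4me3 peak of 1468 bp (fold 6.87) covered 164 of them and an H3K27me3 peak of 549 bp (fold 1.87, −log10 q 3.15) covered 55. That H3K27me3 peak lay wholly inside both active peaks. A bulk list cannot tell whether the marks lay on the same copies of the gene or in different cells. A further H3K27me3 peak of 1531 bp reached the other end of the gene. Within 100 kb, 20 H3K27ac peaks and 8 other protein-coding genes were found, and the strongest peak, 3.91 kb wide with a fold of 8.15, lay 39.6 kb away inside Dnm1, a dynamin gene.

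**Figure D2:**
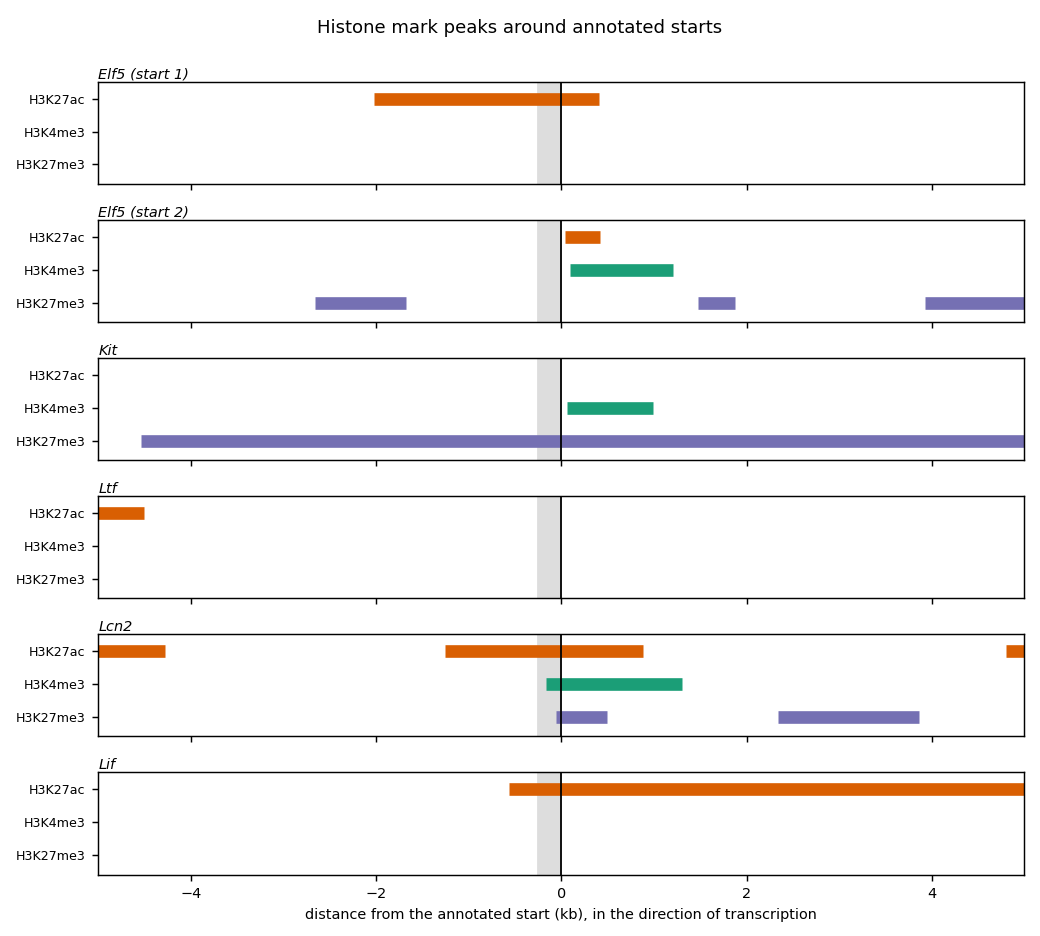
Histone mark peaks within 5 kb of the annotated starts, in the direction of transcription (x axis, kb from the start; start 1 and start 2 of Elf5 are starts A and B), with the 250 bases whose sequence is printed in grey. The start of Ltf has no peak nearer than 4.51 kb, the H3K4me3 peak of Kit lies inside H3K27me3, and the start of Lif in the promoter table lies in H3K27ac with no H3K4me3 until 6.70 kb after it.

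Lif, the cytokine, was the most widely acetylated of the 7 genes and the one nearest to HEB. The gene lies on chromosome 11 (4257568 to 4272514, plus strand). A single H3K27ac peak of 15.4 kb (4256999 to 4272400, fold 6.76) covered 90.9% of its window, and only 212 of the 61496 peaks were wider. More base pairs of H3K27ac lay over Lif than over 94.8% of genes, and no H3K27me3 peak touched the window. The annotated start whose sequence is printed lay in this peak without H3K4me3, and the gene's H3K4me3 peaks lay inside it, 460 bp (fold 2.60) at 6.70 kb after the start and 3065 bp (4265742 to 4268806, fold 17.3) at 8.17 kb after it. These distances are from the 1 start in the promoter table, which is not complete, and other starts of Lif were not analysed here. Beyond the gene's end, H3K27ac peaks followed at 2.27, 7.45 and 9.90 kb with folds of 3.50, 2.21 and 2.41. At 16.8 kb began an H3K27ac domain of 21.9 kb (4289329 to 4311202, fold 8.29), which was wider than all but 70 peaks of the list, touched no protein-coding gene and had no H3K4me3. Over Lif and 100 kb on each side H3K27ac covered 36.9% of the sequence, more than at 99.1% of genes, and H3K27me3 0.174%. The neighbouring cytokine gene Osm, which ends 16.5 kb before Lif, had none of the 3 marks.

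HEB sites were found within 100 kb of 2 of the 7 genes, Lif and Lcn2, against 12.0% of all protein-coding genes. Lif had 2 sites, which 2.20% of genes have or exceed. They lay 28.2 kb (4300671 to 4301054) and 29.8 kb (4302307 to 4303076) beyond the gene, 1252 bp apart, both inside the 21.9 kb H3K27ac domain and at least 8.13 kb from its edges. Only 30 of the 782 H3K27ac peaks that hold HEB hold 2 or more sites, a count that takes no account of peak width. The Lcn2 site (chromosome 2, 32317933 to 32318364) lay 66.3 kb away inside Dnm1, in an H3K27ac peak of 2.77 kb (fold 2.56) and also in an H3K27me3 peak of 918 bp (fold 1.95). Of all 956 HEB sites, 85.25% overlapped H3K27ac, and both H3K27 marks were found at 62 (6.49%). The nearest HEB site was 237.2 kb from Ltf, 638.5 kb from Kit, 921 kb from Aldh1a3, 1991.8 kb from Cd14 and 9523.3 kb from Elf5, and its median distance over all genes was 838.6 kb. Of the printed starts, that of Lif was nearest to a site, at 43.1 kb. With a limit of 50 kb only Lif had a site (7.23% of genes), with 10 kb none of the 7 did (2.86%), and when each site was given only to the gene with the nearest end only Lif did (3.01%).

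**Figure D3:**
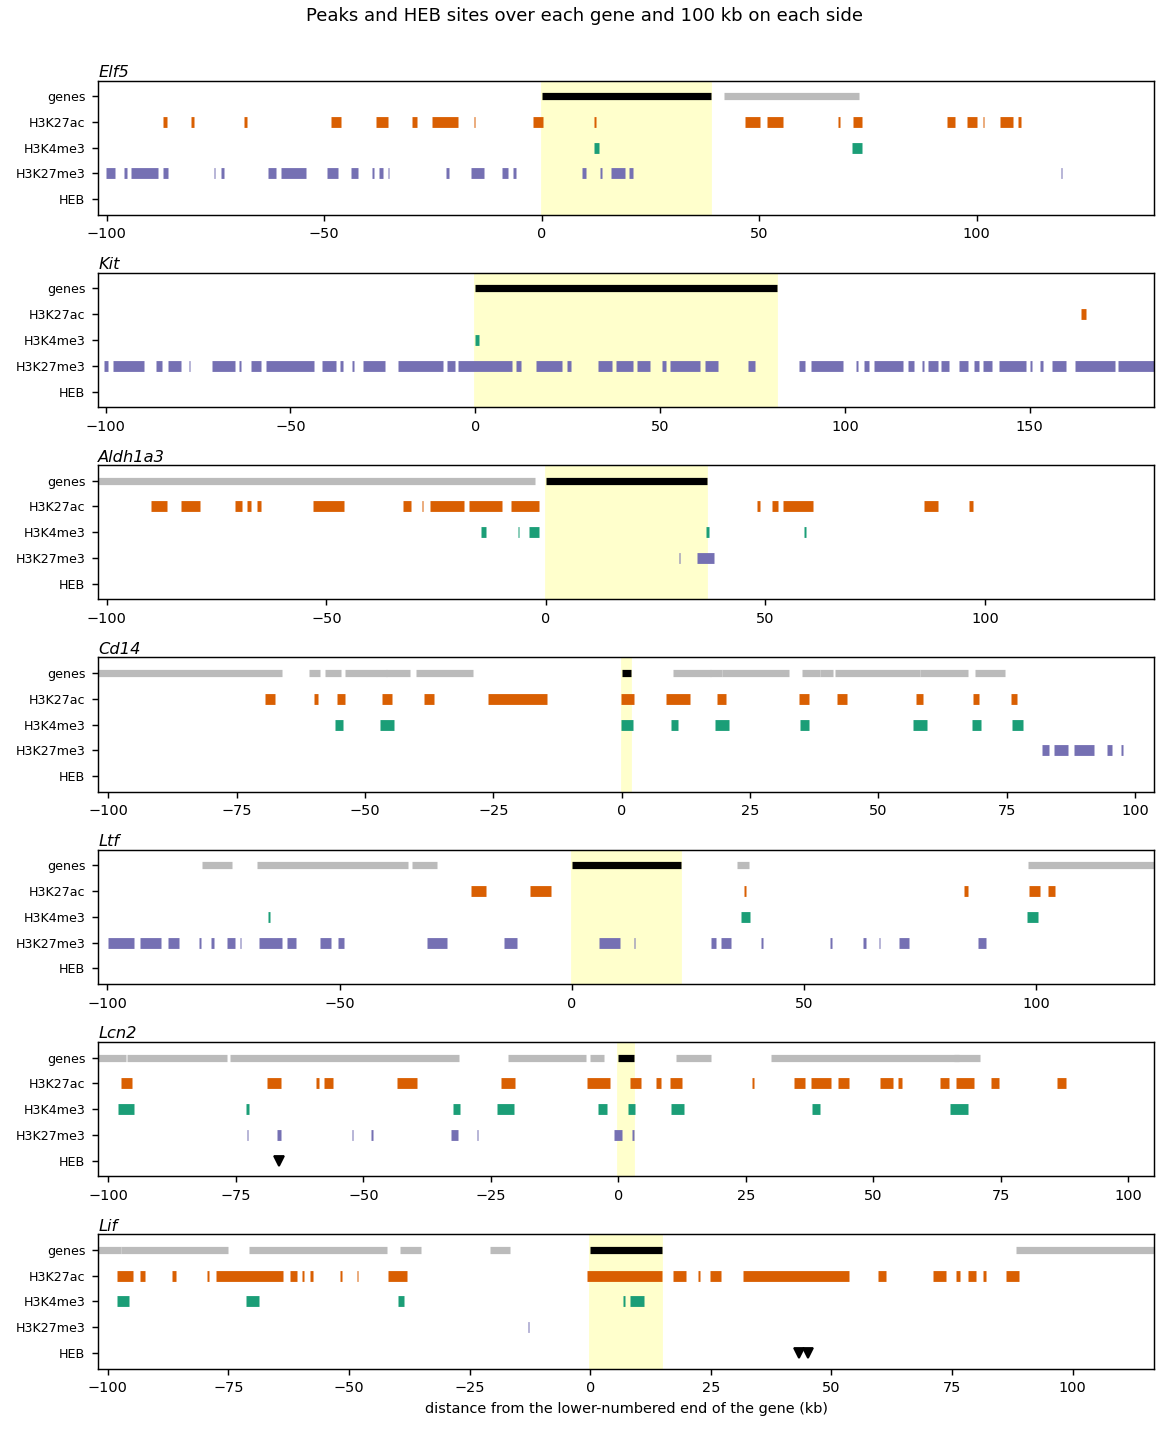
Peaks of the 3 marks and HEB sites (triangles) over each gene (black, shaded) and 100 kb on each side, in kb from the gene's lower-numbered end, with other protein-coding genes in grey. H3K27me3 covers 62.7% of the stretch around Kit and 0.174% of that around Lif, whose 2 HEB sites stand in the 21.9 kb H3K27ac domain beyond the gene.

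The surroundings of the 7 genes ranged from bare to densely acetylated. All 7 had at least 1 H3K27ac peak within 100 kb, as 87.3% of genes did. The numbers were 1 at Kit, 6 at Ltf, 14 at Cd14, 16 at Aldh1a3, 19 at Elf5, 20 at Lcn2 and 22 at Lif, 98 in all, with a median of 16 against 9 over all genes (interquartile range 3 to 14). H3K27ac covered a median of 18.1% of the sequence at the members and 5.97% at all genes. The strongest peak had a fold of 9.48 at Aldh1a3, 8.53 at Cd14, 8.29 at Lif, 8.28 at Elf5, 8.15 at Lcn2, 5.02 at Ltf and 2.24 at Kit, and without a replicate spread the order of the 4 values from 8.15 to 8.53 is not established. Of the 93 peaks outside the gene windows, 23 (24.7%) overlapped H3K4me3, and 7 (7.53%) overlapped H3K27me3, of which 5 were at Elf5. Over the whole list 22.0% and 4.24% of peaks did. Which gene a peak serves was not tested. By position, 16 of the 93 had the member as the gene with the nearest end, 5 each at Elf5 and Aldh1a3, 4 at Lif, 1 each at Kit and Ltf and 0 at Cd14 and Lcn2.

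**Figure D4:**
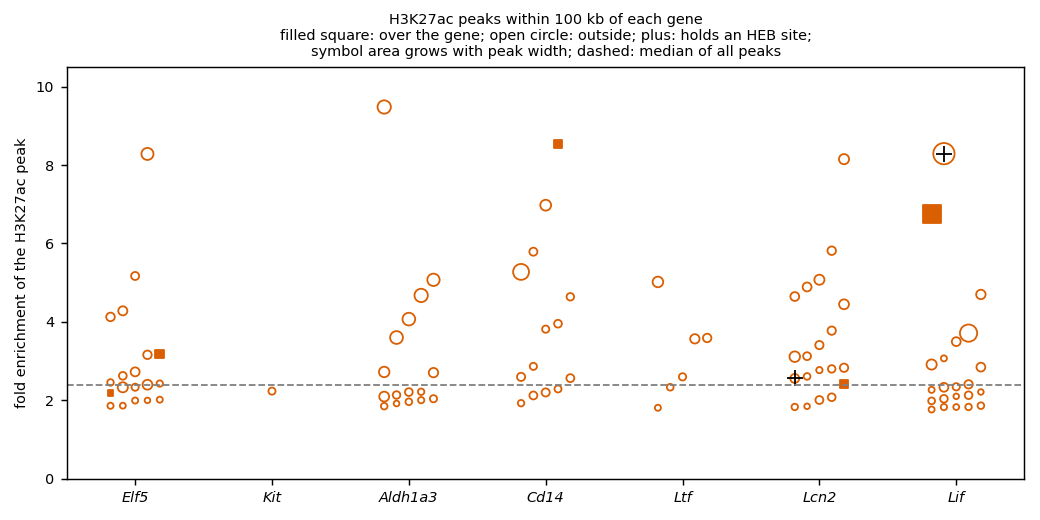
Fold enrichment (y axis) of each H3K27ac peak within 100 kb of each gene, with filled squares for peaks over the gene window, open circles for peaks outside it, a plus for peaks that hold HEB, and symbol area growing with peak width. Elf5, Aldh1a3, Ltf, Lcn2 and Lif have their strongest peak outside the gene, and Cd14 has it over the gene. The single peak near Kit, also outside the gene, lies below the dashed list median of 2.39.

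Most partner genes of the members carried active marks, which over all protein-coding genes lay at 63.2% (H3K27ac) and 61.2% (H3K4me3). Both active marks together lay at 44.7% of all genes without H3K27me3 and at a further 11.5% with it. Kitl, which encodes the KIT ligand, had 19.2 kb of H3K27ac over its window and no H3K27me3, and all 10 genes of the KIT list carried H3K27ac and H3K4me3, with 39.7 kb of H3K27ac at Pik3r1, a regulatory subunit of PI3 kinase, and 1192 bp of H3K27me3 at Lyn, a Src family kinase. In the LIF and STAT3 list, 9 of 10 genes had both active marks, with 27.9 kb of H3K27ac at Stat3 and 13.5 kb at the LIF receptor gene Lifr, which was the 1 gene of the list with H3K27me3 (6.28 kb). Il6st, which encodes the shared receptor chain gp130, also had 1 HEB site within 100 kb, near that limit at 97.95 kb. All 12 genes of the CD14 and TLR4 list had both active marks, among them Tlr4 (H3K27ac fold 10.7) and Ly96 (8.09), which encode the receptor and its partner MD-2, and only Lbp, the lipopolysaccharide binding protein gene, also had H3K27me3 (12.7 kb).

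The Elf5 and alveolar list had both active marks at 10 of 10 genes and H3K27me3 at 3. Over all genes, both active marks lay at 44.7% without H3K27me3 and at a further 11.5% with it. H3K27ac lay at 63.2% of all genes and H3K27me3 at 37.5%. Ehf encodes a related ETS factor and lies before Elf5 on chromosome 2 (103263431 to 103303275), more than 100 kb away. It had 29.3 kb of H3K27ac with an H3K4me3 fold of 7.51 and 13.4 kb of H3K27me3. The H3K27ac peaks 67.7, 80.0 and 86.2 kb before Elf5 were nearer to the end of Ehf. Prlr, the prolactin receptor gene, had 147.3 kb of H3K27me3 and 6.75 kb of H3K27ac over its window, while Stat5a had both active marks and no H3K27me3. Of the 15 retinoic acid genes, 10 had H3K27ac, near its share over all genes, and 9 had H3K27me3. The sister enzyme genes differed, Aldh1a1 having all 3 marks with 34.9 kb of H3K27me3, and Aldh1a2 having 66.0 kb of H3K27me3 with 663 bp of H3K27ac. The receptor genes Rara and Rxra had 38.6 and 35.8 kb of H3K27ac and no H3K27me3, and 5 HEB sites lay within 100 kb of Rxra, the nearest of them in the gene. In the list of secreted antimicrobial and iron proteins, 3 of 10 genes had H3K27ac, with 4.44 kb at Slpi, and 5 had H3K27me3, with 24.1 kb at Pigr. HEB lay within 100 kb of 3 of 10 LIF and STAT3 genes, 4 of 12 CD14 and TLR4 genes, 3 of 15 retinoic acid genes, 4 of 10 secreted protein genes, 1 of 10 alveolar genes and 0 of 10 KIT genes, beside 12.0% of all genes. Neighbouring genes share sites in these counts, as Osm does with Lif, and S100a8 with S100a9.

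**Figure D5:**
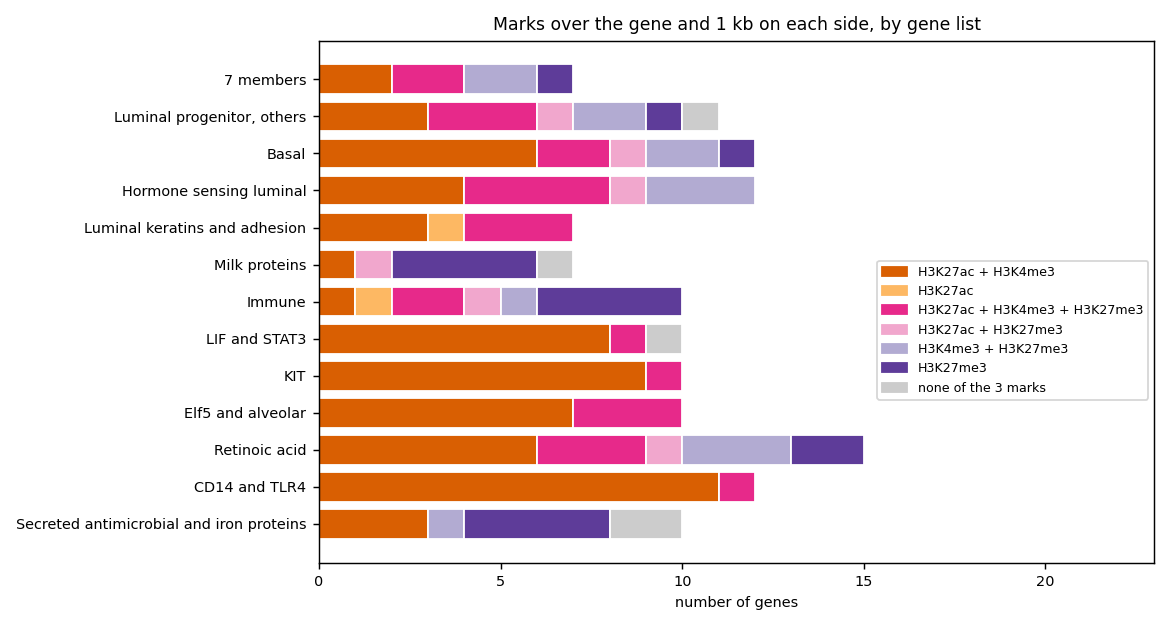
Number of genes (x axis) by the combination of marks over the gene and 1 kb on each side, for the 7 members, the other luminal progenitor markers and the other fixed lists. The 7 members divide over 4 combinations, and the other luminal progenitor, basal, hormone-sensing and retinoic acid lists are divided as well. In the KIT list 9 of 10 genes carry H3K27ac with H3K4me3 alone, beside 44.7% of all genes.

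Other mammary marker lists were also divided between the marks. The other 11 luminal progenitor markers had H3K27ac at 7, H3K4me3 at 8 and H3K27me3 at 7. Among them Ehf had 29.3 kb of H3K27ac and 13.35 kb of H3K27me3. The 12 hormone-sensing markers had these marks at 9, 11 and 8, and the 12 basal markers at 9, 10 and 6. The basal genes differed. Trp63, which encodes the basal regulator p63, had 65.6 kb of H3K27ac over 31.2% of its window and no H3K27me3. Myh11 had 42.8 kb of H3K27me3 over 42.9% of its window and neither active mark. Milk protein genes had H3K27ac at 2 of 7 and H3K27me3 at 5 of 7. The shares over all genes were 63.2%, 61.2% and 37.5% for H3K27ac, H3K4me3 and H3K27me3, and the counts were not tested against each other. Likeness was taken from base pairs of the 3 marks over the gene window (Euclidean distance of log2 values over 3 marks, among 137 other genes of the lists). The genes most like Kit were Kdr (0.27) and Prom1 (1.03). Kdr lies near Kit on chromosome 5 (75932827 to 75979072), though more than 100 kb beyond it. The genes most like Aldh1a3 were Cyp26a1 (0.41) and Slc22a17 (0.47), and those most like Ltf were the milk protein genes Csn1s1 (0.05) and Lalba (0.07). This distance ignores peak strength and the share of the window covered. H3K27me3 covered 18.7% of the Ltf window (strongest fold 1.88), 26.9% at Csn1s1 (1.77) and 100% at Lalba (2.995). Cd14 was nearest to Crabp2 (0.06) and Ly96 (0.31), Lif to Pdgfrb (0.09) and Col1a1 (0.17), Lcn2 to Itga2 (0.68) and Epcam (1.23), and Elf5 to Lbp (1.25) and Lcn2 (1.46).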

How the data were processed

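Chromatin of Comma-Dβ cells was analysed from 4 deposited peak lists, for HEB, H3K27ac, H3K4me3 and H3K27me3, each standing for 4 replicates. Coordinates are mm10, and SAMtools was used, per the submitters' processing notes. The names of the aligner and the caller, and the control input, were not given in the sources used here. How replicates were joined is known only for HEB, whose deposited name describes a consensus with a minimum overlap of 2. The authors' deposited fold enrichment of a peak is a linear ratio. The deposited −log10 q values are also the authors' own, and the deposited score, which repeats them multiplied by 10, was not used.

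Overlaps of 1 bp or more and distances between nearest edges were computed with Python 3.11.15, numpy 2.4.6 and pandas 2.3.3 after the overlap routine was tested on simulated intervals. Gene positions came from a RefSeq table of GRCm38.p6, and all 7 members and all 138 genes of the 14 lists were found in it. Peaks were assigned to a gene window (the gene and 1 kb on each side) or to 100 kb on each side. Ranks among genes give the percent with a lower value. Genes named beside the members were at most 4 per list, those with the most base pairs of H3K27ac or H3K27me3, plus ligands, receptors and partners of the members and the 2 nearest by mark pattern. Osm, Lrrk1, Dnm1 and other neighbours were named by position. The members and lists were chosen with earlier results of these data known. No test was made, since the lists carry no value per replicate, and E-boxes within HEB sites were not analysed here because no genome sequence was used.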

Additional observations from a re-analysis of the deposited data

How the results depend on the processing

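No paired analysis was possible because each antibody has 1 deposited list with no column per replicate, and for the same reason no replicate could be left out. Counts of members that stayed within 1.5 times their main value under other windows, overlaps and peak thresholds are not repeated. H3K4me3 lay at 2 members, in place of 6, with peaks above the median fold of the list. H3K27me3 lay at 3, in place of 5, with windows around gene ends only and at 2 with a −log10 q of 5 or more. An HEB site lay near 1 member, in place of 2, within 50 kb, near 0 within 10 kb, and near 1 when each site went to the gene with the nearest end. The 98 H3K27ac peaks within 100 kb became 51 within 50 kb, 51 with a −log10 q of 5 or more and 57 above the median fold. The number of H3K27ac peaks near Kit was 0 in place of 1 under each of these 3 settings. With a −log10 q of 5 or more, Lif had 8 of its 22 peaks, Elf5 8 of 19, Aldh1a3 7 of 16, Lcn2 14 of 20, Cd14 10 of 14 and Ltf 4 of 6, so that Lcn2 and no longer Lif had the most. Depth per sample is unknown, so an absent peak was not detectable at this depth rather than shown to be absent.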
